A study of Mus musculus with 114 samples.

Results

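Arc, Bdnf, Homer1, Dusp1, Dusp6, Btg2 and Ier2 are genes that neurons switch on when they are active. They were taken from a count table of ribosome-bound RNA of mouse prefrontal cortex by symbol, and all 7 were found among the 13101 gene identifiers of the table. Arc and Homer1 encode synaptic proteins, Bdnf a secreted growth factor, Dusp1 and Dusp6 phosphatases that switch off MAP kinases, Btg2 a factor that promotes mRNA decay, and Ier2 a nuclear protein. The list was put together from what these genes are known for, with earlier results of these data known, and not from a threshold on the values.

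When a neuron fires, calcium entry and the ERK branch of the MAP kinase cascade switch on a set of immediate early genes through transcription factors that are already present, such as CREB and SRF. The products include further transcription factors and effectors that act at the synapse. Dual-specificity phosphatases are induced in the same wave and dephosphorylate the kinases that induced them, which makes them feedback inhibitors. In cortex these genes are widely used as a readout of recent activity, and both pyramidal neurons and interneurons can induce them.

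The libraries were made by the RiboTag method from Ribo-tag mice: a haemagglutinin tag on a ribosomal protein marks the ribosomes of one cell type, and an antibody against the tag pulls them down with the mRNA they carry. Tissue came from 6 zeitgeber times (ZT, counted in hours from lights on): 2, 6, 10, 14, 18 and 22. The 113 libraries used are 55 with the title prefix PV (28 from females, 27 from males) and 58 with the prefix C (29 and 29), with 8 to 10 libraries per prefix and time. No treatment is named for any group, and no source used here gives the strain, age, Cre line or light schedule. Whether each library comes from its own mouse is not stated, so the p values measure the spread between libraries.

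In every library the cell type entry of the labels is the opposite of what the title prefix stands for, and the names PV-titled and C-titled follow the title. The summed level of 11 PV interneuron markers had a median of 1084 CPM (the gene's share of the library total after TMM scaling, in parts per 10 to the power of 6) in PV-titled and 431 CPM among C-titled libraries, and that of 7 GABAergic markers 1163 and 81.3 CPM. That of 12 pyramidal markers was 2520 (range 1584 to 3869) and 6203 (3922 to 7953) CPM, so the markers go with the titles. That of 10 markers of other interneurons was 543 and 1235 CPM, though 8 of the 10 were higher in PV-titled libraries. Markers of other cells were also higher in PV-titled libraries: the medians were 1536 against 562 CPM for astrocytes, 501 against 222.2 for oligodendrocytes, 239.8 against 69.8 for microglia, and 161.5 against 27.7 for endothelial and mural cells. Totals over genes ran from 19.1 to 39.5 M counts per PV-titled and 24.6 to 44.1 M counts per C-titled library. The titles carry library numbers of 2 ranges, a low (first) and a high one (second), with a gap between them, and the range was a term of every fit over both. A group of 8 libraries correlated less well with others of the same prefix: 5 C-titled libraries at ZT2 or ZT6 (median r 0.878 to 0.941 against 0.978 for the prefix) and 3 PV-titled ones at ZT10, ZT14 and ZT22 (0.808 to 0.854 against 0.937). Where the call of a gene changed once they were left out, both results are given.

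Depth was ample for all 7 genes: the median count per library ran from 807 for Ier2 in C-titled to 7504 for Arc in C-titled libraries. Arc (ENSMUSG00000022602) lies on GRCm38 chromosome 15, 74669083 to 74672570, on the minus strand. Bdnf (ENSMUSG00000048482) lies on chromosome 2, 109674700 to 109727007, plus strand, and Homer1 (ENSMUSG00000007617) on chromosome 13, 93299635 to 93405129, plus strand. Dusp1 (ENSMUSG00000024190) is annotated on chromosome 17, 26505590 to 26562128, minus strand, and Dusp6 (ENSMUSG00000019960) on chromosome 10, 99263231 to 99267489, plus strand. Btg2 (ENSMUSG00000020423) lies on chromosome 1, 134075170 to 134079120, minus strand, and Ier2 (ENSMUSG00000053560) on chromosome 8, 84661331 to 84662852, minus strand. The annotated span of Dusp1 overlaps Ergic1 on the other strand, and that of Bdnf an antisense gene, Gm45346. That of Homer1 overlaps Gm47075 and Gm47088 on its own strand. No source used here says whether reads were counted by strand, so reads of these partners could not be told apart. Counts are per gene, so the short, activity-induced Homer1 transcript and the long ones are added together, as are the Bdnf transcripts from different promoters.

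Promoter windows from RefSeq (GRCm38.p6, 250 bases before to 50 after each start) were found for 5 of the 7 genes, in 12 windows: 7 of Bdnf, 2 of Homer1 and 1 each of Dusp1, Dusp6 and Btg2. The others are Arc and Ier2. The bases before the start are printed for 3 windows. These were chosen because Dusp1 and Btg2 varied together across libraries in both prefixes. Homer1 had r near 0 with both before time, sex and range were taken out. Capitals mark matches on either strand to the motifs searched. These are the cAMP response element TGACGTCA, which CREB binds, its core TGACG, the E-box CACGTG and the EGR motif GCGNGGGCG.
Dusp1, chr17:26508473-26508722, minus strand: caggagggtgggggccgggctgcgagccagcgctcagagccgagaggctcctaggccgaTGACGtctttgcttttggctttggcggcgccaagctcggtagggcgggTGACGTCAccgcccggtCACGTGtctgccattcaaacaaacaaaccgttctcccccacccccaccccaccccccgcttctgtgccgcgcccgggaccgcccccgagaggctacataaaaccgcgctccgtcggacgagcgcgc
Btg2, chr1:134079156-134079405, minus strand: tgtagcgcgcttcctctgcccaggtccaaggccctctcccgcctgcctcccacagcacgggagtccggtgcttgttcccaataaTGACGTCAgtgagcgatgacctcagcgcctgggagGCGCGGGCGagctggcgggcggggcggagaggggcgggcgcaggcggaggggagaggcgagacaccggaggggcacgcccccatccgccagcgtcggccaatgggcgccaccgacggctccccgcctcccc
Homer1, first window, chr13:93303507-93303756, plus strand: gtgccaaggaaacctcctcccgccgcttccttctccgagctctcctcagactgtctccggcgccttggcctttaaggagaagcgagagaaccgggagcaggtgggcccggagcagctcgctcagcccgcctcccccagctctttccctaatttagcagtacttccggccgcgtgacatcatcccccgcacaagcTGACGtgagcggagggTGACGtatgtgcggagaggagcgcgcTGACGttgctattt

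The full element TGACGTCA stood in the Dusp1 window, at bases -143 to -136 counted from the start site, and in the Btg2 window, at -166 to -159. It was in 2 of the 12 windows, and in 588 of all 32851 windows of the table (1.79%). The core TGACG, which the full element contains on both strands, stood in 3 places in the first Homer1 window, from -56 to -52, -40 to -36 and -14 to -10, and once more in the Dusp1 window and in one Bdnf window. It was in 4 of the 12 windows and in 20.8% of all windows. The E-box was in the Dusp1 window (7.15% of all windows), the EGR motif in the Btg2 window (5.55%), and the AP-1 motif TGANTCA in another Bdnf window (7.81%). The CArG box, which SRF binds (1.63%), and the D-box TTATGNAA (3.38%) matched none of the 12. The Dusp6 window, which is not printed, matched none of the motifs searched, though Dusp6 varied with Dusp1 and Btg2 across libraries too. With Dusp1, Dusp6 had r 0.50 (PV-titled) and 0.72 (C-titled), and with Btg2 0.51 and 0.61. A match says only that these letters are in the window. Whether motifs go with shared variation across libraries was not tested.

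Bdnf and Homer1 were lower, and Btg2 and Ier2 higher, in the PV-titled libraries, while Arc and Dusp1 had nearly the same level in both. Dusp6 was lower in PV-titled libraries. Between the prefixes 5 of the 7 genes differed, 2 higher and 3 lower in PV-titled libraries (edgeR quasi-likelihood test, Benjamini-Hochberg adjustment over all genes, as for every adjusted p here). Over all 13053 genes tested 87.5% differed, 44.3% with the higher level in PV-titled and 43.2% among C-titled libraries, so a difference as such does not set the genes apart. Of the genes called, 50.7% were higher in PV-titled libraries, and 61.7% with library totals in place of TMM, which moved the median of all genes to 0.21. The median log2 difference (PV-titled minus C-titled) of the 7 genes was 0.16, the value of Dusp1, which did not pass, against 0.01 over all genes. In these pull-downs, fewer cells of a type and less RNA per cell cannot be told apart.

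Bdnf, the ligand of the receptor TrkB that promotes growth and plasticity of synapses, ranged from 13.6 to 65.0 CPM in PV-titled libraries (median 34.7) and from 62.3 to 211.6 CPM in C-titled libraries (median 99.2). The 2 sets touched in a single library: 54 of 55 PV-titled libraries lay below the lowest C-titled one. The means were 35.5 ± 10.5 (SD, n = 55) and 104 ± 23.5 CPM (SD, n = 58), a 2.90-fold difference (log2 -1.53, SE 0.07, adjusted p = 4.91e-42). It was -1.50 in the first library-number range alone and -1.60 in the second. Among the other genes of BDNF signalling and processing, 5 of 11 tested were higher and 4 lower in PV-titled libraries. Of all genes 44.3% were higher and 43.2% lower. Sort1, which encodes the sorting receptor sortilin, was lower (log2 -0.90), as was the neurotrophin gene Ntf3 (log2 -1.42). Plcg1, a phospholipase that acts downstream of TrkB, was higher (log2 0.67), as was the adaptor gene Frs3 (log2 0.55).

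Homer1, a postsynaptic scaffold that links metabotropic glutamate receptors to Shank proteins and IP3 receptors, ranged from 69.8 to 231.8 CPM in PV-titled (median 124) and from 102 to 346 CPM in C-titled libraries (median 190.3). The sets overlapped, and 55 of 58 C-titled libraries lay above the PV-titled median. The level was 1.48-fold lower in PV-titled libraries (log2 -0.57, SE 0.06, adjusted p = 1.55e-16), with -0.81 in the first range and -0.35 in the second. Of the 14 partners of Homer and Arc proteins on the list, 6 were higher and 7 lower, beside 44.3 and 43.2% of all genes. Shank2 and Shank3, which encode scaffolds that Homer binds, were higher in PV-titled libraries (log2 1.60 and 1.32). The dynamin genes, which encode endocytic GTPases, went opposite ways, with Dnm2 at log2 1.42 and Dnm1 at -1.17.

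Arc, which encodes a protein of dendrites that takes part in the removal of AMPA receptors from synapses, had medians of 230.7 CPM in PV-titled (range 30.9 to 1033) and 230.3 CPM in C-titled libraries (range 13.5 to 867). The ranges overlapped almost fully, and 28 of 55 PV-titled libraries exceeded the C-titled median. The log2 difference was 0.17 (SE 0.18, 95% interval -0.19 to 0.53, adjusted p = 0.383). The sign was not stable: it was -0.31 in the first library-number range (adjusted p = 0.229) and 0.63 in the second (adjusted p = 0.0213), and it passed the threshold without replicate 1 (log2 0.43). Within C-titled libraries the Arc median was 280.97 CPM in the first range and 135 CPM in the second, and within PV-titled libraries 226.4 and 245.8 CPM. Per kilobase of exon, Arc had the highest median of the 7 genes in both prefixes, 75.5 CPM per kb in PV-titled and 75.3 CPM per kb among C-titled libraries.

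Dusp1, the nuclear phosphatase that inactivates p38, JNK and ERK, ranged from 32.1 to 349 CPM in PV-titled (median 107) and from 25.3 to 265.6 CPM in C-titled libraries (median 87.8). The ranges overlapped. The log2 difference was 0.16 (SE 0.12, 95% interval -0.07 to 0.39, adjusted p = 0.201), with 0.07 in the first range and 0.27 in the second. It passed without replicate 3 (log2 0.27, adjusted p = 0.0453) and with library totals (log2 0.37, adjusted p = 0.00229). Dusp6, a cytoplasmic phosphatase with a preference for ERK, ranged from 56.3 to 181.6 CPM in PV-titled (median 81.7) and from 52.1 to 265.1 CPM in C-titled libraries (median 119). The level of Dusp6 was 1.36-fold lower in PV-titled libraries (log2 -0.45, SE 0.08, adjusted p = 2.25e-07), with -0.58 in the first range and -0.32 in the second.

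Other feedback genes of the cascade differed in both directions, as genes in general did (44.3% of all genes higher and 43.2% lower in PV-titled libraries). Of 12 other MAP kinase phosphatases and ERK feedback inhibitors tested, 5 were higher and 5 lower in PV-titled libraries. Dusp10, a phosphatase that acts mainly on p38 and JNK, was 13.3-fold higher (log2 3.73, SE 0.20), and the Sprouty-related genes Spred3 and Spry4 were 2.46-fold and 1.99-fold higher. Dusp14 was 2.34-fold lower. Of 25 genes of the ERK cascade 9 were higher and 11 lower, with a median of 0.00 against 0.01 over all genes. Map2k1, the kinase that activates ERK, was 2.71-fold lower.

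Btg2, which belongs to the BTG/Tob family and brings the CCR4-NOT deadenylase to mRNAs, ranged from 20.3 to 157.4 CPM in PV-titled (median 63.1) and from 15.1 to 136 CPM in C-titled libraries (median 27.6). The ranges overlapped, but 54 of 55 PV-titled libraries exceeded the C-titled median. Btg2 was 2.16-fold higher in PV-titled libraries (log2 1.11, SE 0.13, adjusted p = 2.99e-14), with 0.79 in the first range and 1.47 in the second. Of 11 other genes of the family and the deadenylase, 7 were higher in PV-titled libraries (44.3% of all genes) and 2 lower (43.2%). Among them were the deadenylase subunit genes Cnot6 (log2 0.84) and Cnot8 (log2 -0.65). Ier2 ranged from 14.4 to 79.3 CPM in PV-titled (median 40.8) and from 8.05 to 54.4 CPM in C-titled libraries (median 23.6), and 45 of 55 PV-titled libraries exceeded the C-titled median. Ier2 was 1.53-fold higher in PV-titled libraries (log2 0.62, SE 0.11, adjusted p = 2.40e-07), with 0.47 in the first range and 0.76 in the second. The marker lists of glia, endothelial and mural cells were higher in PV-titled libraries too (10 of 10 astrocyte, 7 of 7 oligodendrocyte, 10 of 10 microglia and 9 of 9 endothelial and mural markers tested). The summed levels ran from 1172 to 2667 CPM in PV-titled and 364 to 1296 CPM in C-titled libraries for astrocytes, and from 79.8 to 258.3 and 9.87 to 75.0 CPM for endothelial and mural cells, of whose markers 1 was at 0 in a PV-titled library. For oligodendrocytes they ran from 250.2 to 795 and 138 to 356 CPM, and for microglia from 201.8 to 359 and 47.3 to 110.3 CPM, with no marker at 0 in any library. Their part in the difference of Btg2 and Ier2 was not tested.

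Activity-induced transcription factors were mostly lower in PV-titled libraries. Of the 15 tested 1 was higher and 11 were lower, with a median log2 difference of -0.63, where 44.3% of all genes were higher and 43.2% lower with a median of 0.01. Egr1 and Egr3, which encode zinc finger factors of the same wave, were 2.41-fold and 2.46-fold lower. Of 14 other activity-induced effectors 3 were higher and 9 lower, with a median of -0.53. Nptx2, which encodes a pentraxin that clusters AMPA receptors, was 3.40-fold lower, and the neuropeptide precursor Vgf 3.18-fold lower. Pyramidal markers moved the same way: of the 12 tested 1 was higher and 9 were lower, with a median of -0.79, and the ranges of their summed level in the 2 prefixes (1584 to 3869 and 3922 to 7953 CPM) did not overlap. Their part in these differences, and in those of Bdnf and Homer1, was not tested.

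**Figure D1:**
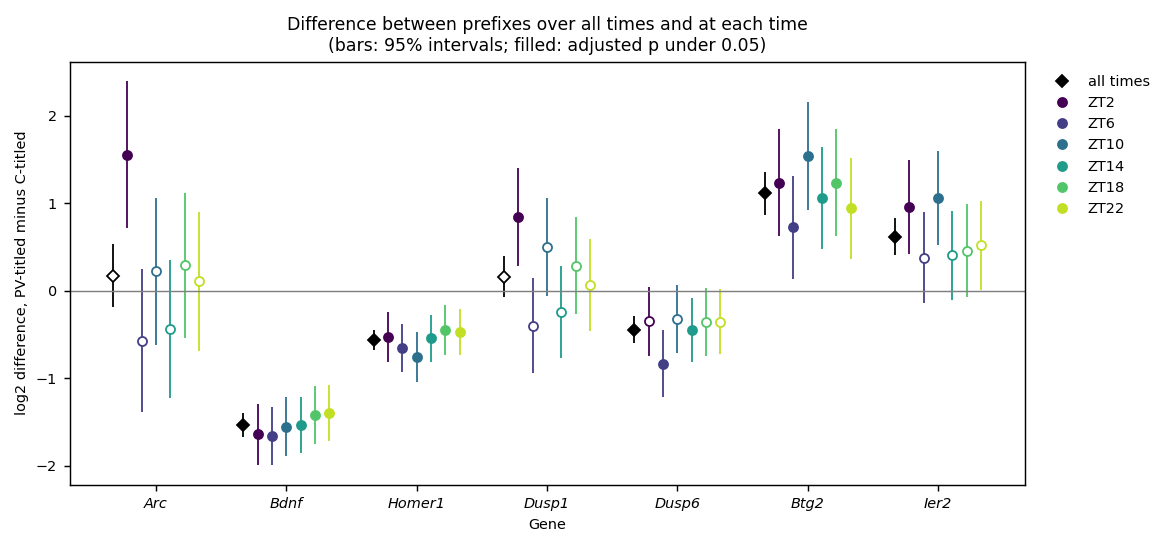
Log2 difference between PV-titled and C-titled libraries (vertical axis) for each of the 7 genes (horizontal axis), over all times (diamonds) and at each time (circles), with 95% intervals and with filled symbols where the adjusted p is under 0.05. Bdnf and Homer1 lie below 0 and Btg2 above 0 at all 6 times, while Arc is above 0 and filled at ZT2 only.

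At single times, Bdnf and Homer1 were lower and Btg2 higher in PV-titled libraries at each of the 6 times. The counts of the 7 genes that differed were 6 at ZT2, 4 at ZT6, 4 at ZT10, 4 at ZT14, 3 at ZT18 and 3 at ZT22. Of all genes 71.2, 72.8, 67.1, 72.1, 68.7 and 68.5% differed at these times. The log2 difference of Bdnf lay between -1.66 at ZT6 and -1.40 at ZT22, that of Homer1 between -0.76 at ZT10 and -0.45 at ZT18, and that of Btg2 between 0.72 at ZT6 and 1.54 at ZT10. Homer1 missed the threshold at ZT6 (log2 -0.29) and ZT10 (-0.24) in the second range alone, and at ZT2 (-0.28), ZT18 (-0.29) and ZT22 (-0.27) with library totals. Btg2 missed it in the first range alone at every time but ZT10 (0.53 to 0.83), at ZT6 without replicate 2, 4 or 5 (0.29 without replicate 4) and at ZT22 without replicate 4 (0.60). With a replicate number left out, the Btg2 difference ran from 0.29 to 1.21 at ZT6 and from 0.87 to 1.82 at ZT2. The C-titled ZT6 libraries that stand apart held 76.4, 75.9 and 20.8 CPM of Btg2, where the median of their group was 28.2 CPM. With the libraries that stand apart left out, Btg2 kept the call at all 6 times.

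With all libraries Arc passed at ZT2 and at no other time. At ZT2 the median was 211.5 CPM in 8 PV-titled and 82.2 CPM in 10 C-titled libraries. The log2 difference at ZT2 was 1.55 (SE 0.43, adjusted p = 0.000867), and it was negative at ZT6 (-0.57, adjusted p = 0.211) and ZT14 (-0.43, adjusted p = 0.33). In the first range alone the call at ZT2 was lost (log2 1.22, adjusted p = 0.073), and the difference at ZT6 passed there (log2 -1.37) and without replicate 4 (log2 -1.28). At ZT10 the difference was 0.22 and not called with all libraries, -0.88 and not called in the first range (adjusted p = 0.149), and 1.60 and called in the second (adjusted p = 0.031).

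Dusp1 also passed at ZT2 and at no other time (log2 0.85, SE 0.29, adjusted p = 0.00622), with 92.4 CPM in PV-titled and 50.8 CPM among C-titled libraries as medians. That call was lost without replicate 2 (log2 0.67) or replicate 4 (0.67), and in the first range alone (0.75). It was kept once the 8 libraries that stand apart were left out. With library totals Dusp1 passed at ZT10 too (0.67). Ier2 passed at ZT2 (0.95) and ZT10 (1.06, or 0.51 and not called in the first range alone), and Dusp6 at ZT6 (-0.84) and ZT14 (-0.45). With library totals Ier2 also passed at ZT6, ZT14, ZT18 and ZT22 (0.57 to 0.72). It passed at ZT6 without replicate 3 (0.69) and once the 8 libraries that stand apart were left out (0.59, adjusted p = 0.0431, against 0.38 and no call with them), and at ZT18 in the second range alone (0.89, adjusted p = 0.0346). Dusp6 also passed at ZT10 without replicate 5 (-0.60) and in the first range alone (-0.70), and at ZT18 without replicate 4 (-0.54) and in the first range alone (-0.73). Once the same 8 libraries were left out it passed at ZT18 as well (-0.37, adjusted p = 0.046, against -0.36 and adjusted p = 0.0981 with them). The Dusp6 call at ZT14 was lost without replicate 1, 3 or 4 (log2 -0.36 to -0.45), in either range alone (-0.41 and -0.48) and with library totals (-0.28).

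**Figure D2:**
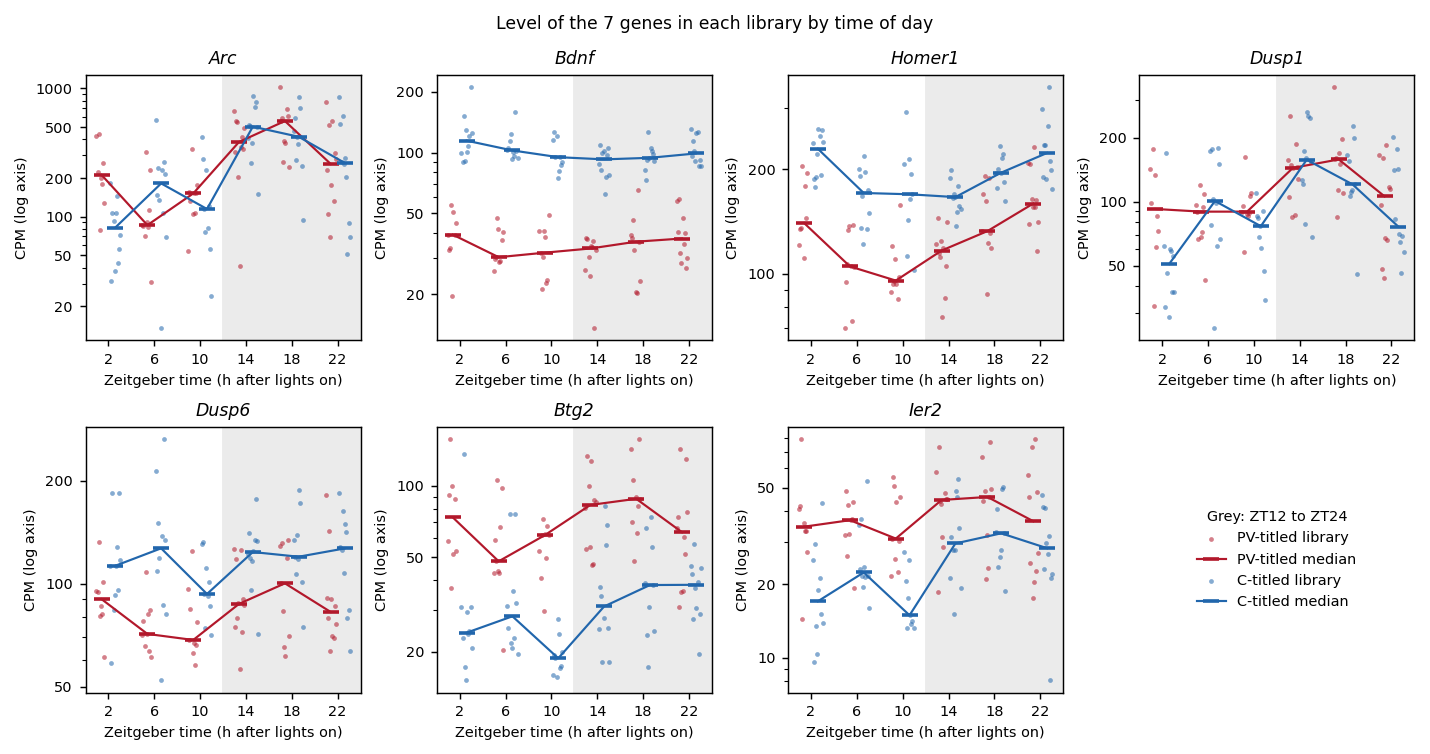
CPM of the 7 genes (vertical axes, log scale) in each of the 113 libraries by zeitgeber time (horizontal axes), with the median of each prefix and time joined by lines. Arc medians are highest at ZT18 in PV-titled (557 CPM) and at ZT14 in C-titled libraries (503 CPM), and Bdnf runs nearly flat at 2 separate levels.

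Over the day, Arc had the largest fitted 24 h profile of the 7 genes in both prefixes, with its highest values at ZT14 and ZT18. Homer1 and Dusp1 also passed the test in both prefixes, and Bdnf in C-titled libraries. The test fits a cosine of 24 h to log2 levels, and its amplitude is the log2 distance from mean to peak. In PV-titled libraries 3 of the 7 genes passed, where 3.10% of all genes did, and in C-titled libraries 4 of the 7, where 27.0% of all genes did. The median amplitude of the 7 genes was 0.30 in PV-titled and 0.29 among C-titled libraries, against 0.11 and 0.12 over all genes. Both medians are the value of Btg2, which did not pass in either prefix. A fitted amplitude is never negative and also grows with the spread between libraries, so this contrast alone shows no stronger profile.

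In PV-titled libraries the lowest, median and highest Arc values were 78.1, 211.5 and 440.3 CPM at ZT2, 30.9, 85.8 and 318.8 CPM at ZT6, and 54.3, 151.6 and 338 CPM at ZT10. They were 41.5, 383 and 664 CPM at ZT14, 245.8, 557 and 1033 CPM at ZT18, and 69.4, 257.3 and 778 CPM at ZT22. Of the 29 libraries at ZT14 to ZT22, 25 lay above the median of those at ZT2 to ZT10, and the highest group (ZT18) still overlapped the lowest (ZT6). The fitted amplitude was 0.99 (SE 0.16), a 3.95-fold change from trough to peak, with the peak at ZT18.3 (adjusted p = 0.000396). Arc had the largest amplitude of the 404 genes called in PV-titled libraries.

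In C-titled libraries the lowest, median and highest Arc values were 31.7, 82.2 and 183.6 CPM at ZT2, 13.5, 181.5 and 571 CPM at ZT6, and 23.95, 115 and 416 CPM at ZT10. They were 149.5, 503 and 867 CPM at ZT14, 94.0, 419.6 and 860.3 CPM at ZT18, and 51.4, 262.96 and 850.4 CPM at ZT22. Here too 25 of 29 libraries at ZT14 to ZT22 lay above the median of the other times, and the highest group (ZT14) overlapped the lowest (ZT2). The amplitude was 1.02 (SE 0.19), 4.12-fold from trough to peak, with the peak at ZT16.2 (adjusted p = 0.000183). It ranked 27 of 3518 genes called. Within the 2 library-number ranges the amplitudes were 1.08 and 1.02 in C-titled libraries, both called, and 1.37 (adjusted p = 0.0103) and 0.73 (adjusted p = 0.197) in PV-titled libraries. In PV-titled females and males alone it was 0.96 and 1.011, and neither passed.

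In the order of the 12 groups of prefix and time by mean log2 CPM, Arc led with PV-titled ZT18, then C-titled ZT14, C-titled ZT18 and PV-titled ZT14. The list ended with C-titled ZT10, PV-titled ZT6 and C-titled ZT2. No step between neighbours in that order exceeded the larger SD of the 2 groups, for Arc or for 5 of the other genes. The exception was Bdnf, where the step from the lowest C-titled group (ZT14) to the highest PV-titled group (ZT22) was 1.21 in log2. Homer1, Dusp6, Btg2 and Ier2 shared with Bdnf that all groups of one prefix came before all groups of the other, though with no step beyond the spread.

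Dusp1 had its highest values at the same times as Arc. In PV-titled libraries the Dusp1 median ran from 89.8 CPM at ZT6 (42.8 to 119.9 in 9 libraries) to 158.2 CPM at ZT18 (84.9 to 349). In C-titled libraries it ran from 50.8 CPM at ZT2 (28.5 to 169.6) to 157.6 CPM at ZT14 (68.3 to 265.6). The highest and lowest groups overlapped in both prefixes. The amplitude was 0.44 (SE 0.10) with a peak at ZT17.1 in PV-titled (adjusted p = 0.0218) and 0.50 (SE 0.14) with a peak at ZT15.3 in C-titled libraries (adjusted p = 0.0128). These calls were not stable: in PV-titled libraries Dusp1 missed the threshold without replicate 2 (adjusted p = 0.0653) or replicate 3 (adjusted p = 0.187), and with time as a factor (adjusted p = 0.117). In C-titled libraries it missed it without replicate 1 (adjusted p = 0.0567) or replicate 2 (adjusted p = 0.1). Dusp1 kept the call in 11 of 18 alternative runs in PV-titled and in 12 of 18 in C-titled libraries. One that kept it in C-titled libraries had time as a factor (adjusted p = 0.00109). Removing the 8 libraries that correlated less well, a choice made after seeing the data, gave a C-titled amplitude of 0.63 (adjusted p = 0.000953). Within the ranges the amplitudes were 0.54 and 0.41 in PV-titled and 0.62 and 0.44 in C-titled libraries, and none of the 4 passed.

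Homer1 followed another course, with high values from ZT18 through ZT2. In PV-titled libraries its lowest, median and highest values were 116, 159.3 and 231.8 CPM at ZT22 and 111, 139.9 and 204.1 CPM at ZT2, and 84.8, 95.6 and 157.4 CPM at ZT10, the lowest group. In C-titled libraries they were 174.8, 222.7 and 346 CPM at ZT22, 177.95, 229 and 260.2 CPM at ZT2, and 137, 166.2 and 199.3 CPM at ZT14, the lowest group. The highest and lowest groups overlapped in both prefixes. The amplitude was 0.36 (SE 0.06) with a peak at ZT21.7 in PV-titled (adjusted p = 0.000195) and 0.26 (SE 0.05) with a peak at ZT22.6 in C-titled libraries (adjusted p = 0.000402). Within the ranges it was 0.44 and 0.31 in PV-titled libraries, neither called (adjusted p = 0.102 and adjusted p = 0.0802), and 0.19 (not called, adjusted p = 0.243) and 0.35 in C-titled libraries. In single sexes the call was lost in PV-titled males (0.33, adjusted p = 0.374) and C-titled females (0.22, adjusted p = 0.181). It was kept in PV-titled females (0.38, adjusted p = 0.0153) and C-titled males (0.32, adjusted p = 0.00515). The summed pyramidal marker level moved with Homer1 in PV-titled libraries (Pearson r 0.61 over 55 libraries, a description), and its median there ran from 2305 CPM at ZT14 to 3198 CPM at ZT22. With that level as a further term Homer1 kept the call, with an amplitude of 0.29 (adjusted p = 0.00126).

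Bdnf had the smallest ratio of the highest to the lowest median of the 7 genes, 1.29 in PV-titled and 1.24 among C-titled libraries. Its medians in C-titled libraries ran from 92.5 CPM at ZT14 (62.3 to 109.5 in 10 libraries) to 114 CPM at ZT2 (89.8 to 211.6), and in PV-titled libraries from 30.4 CPM at ZT6 (26.1 to 47.3) to 39.3 CPM at ZT2 (19.6 to 54.9). All times overlapped within a prefix. In C-titled libraries the amplitude was 0.19 (SE 0.05) with a peak at ZT2.51 (adjusted p = 0.00788). It was 0.19 in each range, not called in either, and the call was also lost without replicate 3 (adjusted p = 0.0902), with time as a factor (adjusted p = 0.0908) and once the 8 libraries that stand apart were left out (0.13, adjusted p = 0.0583). In C-titled males alone it was 0.29 (adjusted p = 0.0331), and in C-titled females alone 0.11 and not called (adjusted p = 0.463). In PV-titled libraries of both sexes the Bdnf amplitude was 0.18 (adjusted p = 0.383).

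**Figure D3:**
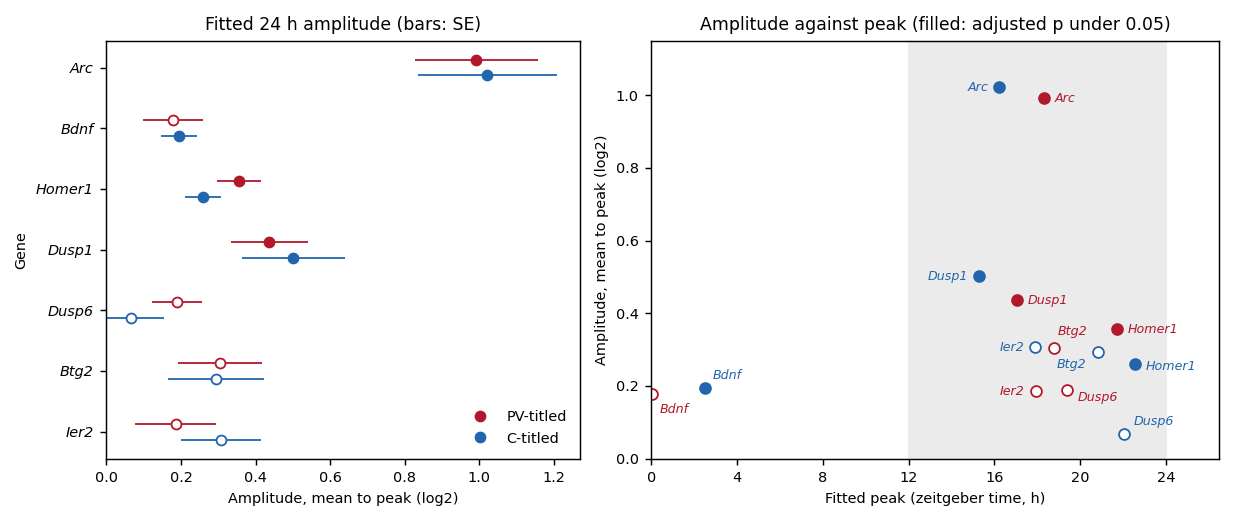
Fitted 24 h amplitude (log2, mean to peak) of the 7 genes in each prefix with SE (left), and amplitude against the fitted peak in zeitgeber time (right, ZT12 to ZT24 shaded), with filled symbols where the adjusted p is under 0.05. Arc stands at 0.99 and 1.02, Dusp1 at 0.44 and 0.50, and Homer1 peaks later than both.

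Dusp6, Btg2 and Ier2 did not pass in either prefix. Dusp6 medians ran from 68.5 CPM at ZT10 to 100.3 CPM at ZT18 in PV-titled libraries (amplitude 0.19, adjusted p = 0.218) and from 93.3 CPM at ZT10 to 127 CPM at ZT6 in C-titled libraries (0.07, adjusted p = 0.824). Btg2 medians ran from 48.0 CPM at ZT6 to 88.1 CPM at ZT18 in PV-titled (0.30, adjusted p = 0.249) and from 18.8 CPM at ZT10 to 38.3 CPM at ZT22 in C-titled libraries (0.29, adjusted p = 0.203). Ier2 medians ran from 30.9 CPM at ZT10 to 45.8 CPM at ZT18 in PV-titled (0.19, adjusted p = 0.566) and from 14.9 CPM at ZT10 to 32.4 CPM at ZT18 in C-titled libraries (0.31, adjusted p = 0.0679). The C-titled values of Btg2 and Ier2 rose once the libraries that stand apart were left out. Without them Btg2 had an amplitude of 0.52 (adjusted p = 0.000349) and Ier2 of 0.50 (adjusted p = 0.000799), and leaving out replicate 3 alone gave 0.52 and 0.43. One of these libraries, at ZT2 from a female (replicate 3), held 136 CPM of Btg2, where the median of its group was 24.04 CPM. Ier2 also passed in C-titled libraries with time as a factor (adjusted p = 0.0232), with library totals (adjusted p = 0.0261) and in DESeq2 (adjusted p = 0.0478). With the summed pyramidal marker level as a further term, Btg2 passed in PV-titled (0.45, adjusted p = 0.0201) and C-titled libraries (0.42, adjusted p = 0.0184), and Ier2 in C-titled libraries (0.35, adjusted p = 0.0236). Of the 12 pyramidal markers 1 passed the profile test in PV-titled and 4 among C-titled libraries, where 3.10 and 27.0% of all genes did. In C-titled libraries 3 of 10 astrocyte, 2 of 11 PV interneuron and 1 of 10 other interneuron markers passed. So did 1 of 7 oligodendrocyte, 1 of 10 microglia, 0 of 7 GABAergic and 0 of 9 endothelial and mural markers.

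The profiles were not shown to differ between the prefixes. In the test of that difference 0 of the 7 genes passed (edgeR, 0 of 7 with an unadjusted p under 0.05; DESeq2 also called 0), where 1.12% of all genes did. The adjusted p values ran from 0.457 for Arc to 0.939 for Btg2. For Arc the amplitude of the fitted difference was 0.56 (SE 0.26). Sex made no difference that passed either. Among PV-titled libraries 0 of 7 genes differed between males and females (edgeR, 0.0307% of all genes), and 1 had an unadjusted p under 0.05, Dusp6, with 79.9 ± 20.3 CPM in 27 male and 97.3 ± 28.8 CPM in 28 female libraries (SD, log2 -0.28, adjusted p = 0.9999). Among C-titled libraries 0 of 7 differed, with 0 of 7 at an unadjusted p under 0.05 (0.184% of all genes). The profile differed between the sexes for 0 of 7 genes in either prefix, with 0 of 7 at an unadjusted p under 0.05 (0% of all genes in both). In C-titled libraries Arc peaked at ZT17.7 in females alone (amplitude 1.04) and at ZT14.7 in males alone (1.16).

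Genes of the same pathways were counted beside the members. Among the 15 activity-induced transcription factors, 5 passed the profile test in PV-titled and 13 among C-titled libraries, with median amplitudes of 0.40 and 0.46. Of all genes 3.10 and 27.0% passed, with median amplitudes of 0.11 and 0.12. In PV-titled libraries Nr4a1, an orphan nuclear receptor gene, had an amplitude of 0.52 with a peak at ZT19.5, and Egr2 of 0.99 with a peak at ZT19.8. In C-titled libraries Jun had 0.59 (ZT19.1), and Fosl2, another AP-1 subunit gene, 0.47 with a peak at ZT1.37. Of 14 other activity-induced effectors 0 passed in PV-titled libraries (5 with an unadjusted p under 0.05, median amplitude 0.22). In C-titled libraries 7 of them passed (median amplitude 0.21), where 27.0% of all genes did. Those in C-titled libraries included Inhba, an activin subunit gene (0.40, ZT1.05), Ptgs2, which encodes cyclooxygenase-2 (0.29, ZT0.368), and Ccn1, a secreted matrix protein gene (0.78, ZT15.6).

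Among 12 other MAP kinase phosphatases and ERK feedback inhibitors, 2 passed in PV-titled libraries, where 3.10% of all genes did. They were Spry4 (0.43, ZT19.3) and Dusp5, a nuclear ERK phosphatase gene (0.53, ZT19.9). In C-titled libraries 4 passed, where 27.0% of all genes did, among them Spry4 (0.44, ZT18.4) and Dusp7 (0.25, ZT12.4). Of the 25 genes of the ERK cascade 1 passed in PV-titled libraries, Elk1, a transcription factor that ERK phosphorylates (0.31, ZT20.6), and 9 in C-titled libraries, where 27.0% of all genes did, with median amplitudes of 0.11 and 0.10 against 0.11 and 0.12 over all genes. Of the remaining lists, 0 of 11 genes passed for BDNF receptors and processing, 0 of 14 for Homer and Arc partners and 0 of 11 for the BTG family and CCR4-NOT in PV-titled libraries (2, 2 and 4 with an unadjusted p under 0.05). In C-titled libraries 2, 4 and 3 did, again beside 27.0% of all genes, among them the adaptor gene Frs3 (0.14) and Tob2, of the BTG/Tob family (0.26).

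**Figure D4:**
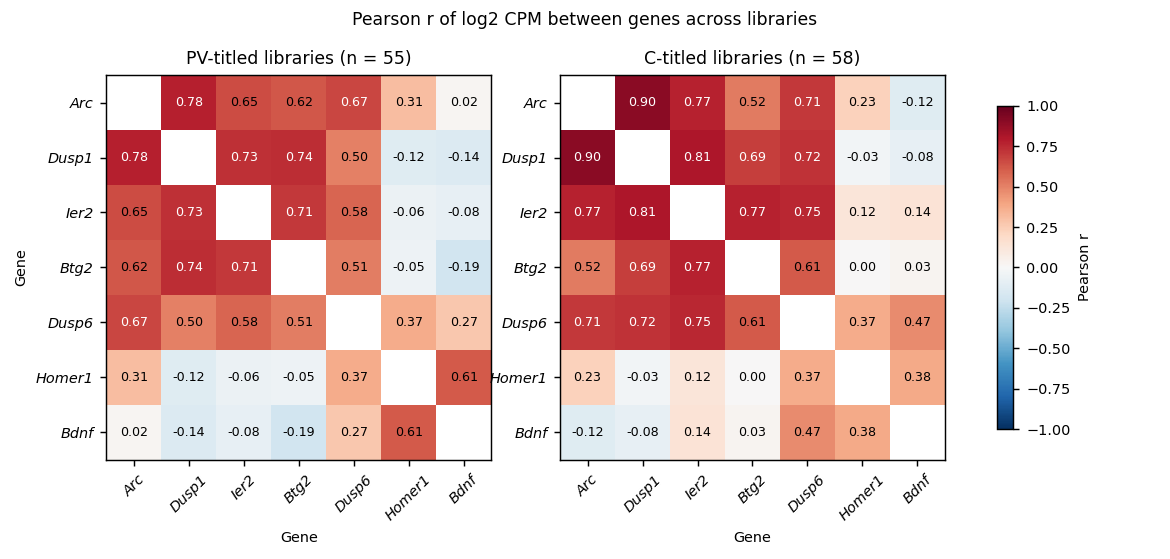
Pearson r of log2 CPM between each pair of the 7 genes across the 55 PV-titled (left) and 58 C-titled libraries (right), from -1 (blue) to 1 (red). Arc, Dusp1, Ier2, Btg2 and Dusp6 form a block with r of 0.50 or more in both prefixes, and the pairs of Homer1 and Bdnf with them reach 0.37 and 0.47 at most, both with Dusp6.

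Across libraries Arc, Dusp1, Dusp6, Btg2 and Ier2 varied together, while Bdnf and Homer1 were less close to them and closest to Dusp6. Among the first 5 genes r ran from 0.50 (Dusp1 and Dusp6) to 0.78 (Arc and Dusp1) over 55 PV-titled libraries and from 0.52 (Arc and Btg2) to 0.90 (Arc and Dusp1) over 58 C-titled libraries. Bdnf and Homer1 had r 0.61 across PV-titled and 0.38 across C-titled libraries, and in the latter Bdnf was closer to Dusp6 (0.27 and 0.47). Homer1 and Dusp6 had r 0.37 in both prefixes, Homer1 and Arc 0.31 and 0.23. Homer1 and Dusp1 had r -0.12 and -0.03, and Homer1 and Btg2 -0.05 and 0.00. These are descriptions, since the libraries share scaling, library-number ranges and times of day. After time, sex and range were taken out, Arc and Dusp1 still had r 0.75 and 0.83, and Bdnf and Homer1 0.68 and 0.47. Homer1 then had r -0.31 and -0.32 with Btg2, -0.17 and 0.03 with Dusp1, and -0.13 and 0.12 with Ier2. With Arc it had r 0.17 and 0.39, and with Dusp6 0.27 and 0.38. In C-titled libraries Bdnf then had r 0.68 with Dusp6, 0.45 with Ier2, 0.32 with Arc and 0.30 with Dusp1. Depth, as the log2 total over genes, had r of -0.33 to 0.11 with the 7 genes in PV-titled and -0.10 to 0.29 in C-titled libraries. The percent of reads on no gene had r of -0.18 to 0.36 (Btg2) in PV-titled libraries. In C-titled libraries it ran from -0.37 (Arc) to 0.34 (Bdnf). The summed pyramidal markers had r -0.38 with Dusp1 and -0.25 with Btg2 in PV-titled libraries, and -0.40 and -0.45 in C-titled libraries. The part of these in the correlations was not tested.

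Outside the 7 genes, the 3 most like each in log2 CPM across libraries were taken after sex and range had been removed. For Arc they were Junb, an AP-1 subunit gene (r 0.83 over 55 libraries), Nr4a1 (0.83) and Npas4, a neuron-specific transcription factor gene (0.80) in PV-titled libraries. In C-titled libraries they were Junb (0.89 over 58 libraries), Nr4a1 (0.87) and Fos (0.82). Junb came first for Dusp1 as well (0.83 and 0.87), followed by Npas4 (0.68) and Jmjd6, a gene of the Jumonji family (0.65), in PV-titled and by Nr4a1 (0.77) and Klf10, a zinc finger factor gene (0.74), in C-titled libraries. It also came first for Ier2 in PV-titled libraries (0.77), with Fos first in C-titled libraries (0.83). For Dusp6 they were led by Nr4a1 (0.68) and Fos (0.76), with Spry4 also among the first 3 in C-titled libraries (0.72). For Btg2 the lead was Junb in PV-titled (0.73) and Gadd45g, a growth arrest and DNA damage gene, in C-titled libraries (0.71). Gadd45g (0.66) and Jmjd6 (0.64) followed Junb in PV-titled libraries, and Sox11, a transcription factor gene (0.68), and the related gene Btg1 (0.66) followed in C-titled libraries.

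Bdnf and Homer1 had other neighbours. Bdnf was most like Nrn1, which encodes neuritin, in both prefixes (r 0.68 and 0.80), with Inhba (0.57) and Nptx2 (0.54) next in PV-titled libraries and Fosl2 (0.78) and Inhba (0.72) in C-titled libraries. Homer1 was most like R3hdm2 (0.75), Cobl (0.73) and Sirpa (0.72) in PV-titled libraries. In C-titled libraries the first was Synj2, which encodes an inositol phosphatase (0.85), followed by Ptgs2 (0.81) and Trim9 (0.79). Among all 13052 other genes Homer1 ranked 2 for Bdnf in PV-titled libraries (r 0.63). In C-titled libraries it was far lower for Bdnf (0.47), below Dusp6, which ranked 79 (0.55). Dusp1 ranked 4 for Arc in PV-titled libraries and 2 in C-titled ones.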

How the data were processed

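The deposited table holds whole-number counts of reads per gene. The submitters' processing notes name FastQC, HTSeq, DESeq2 and GRCm38. Per the labels' protocols, cDNA was made with SMART-seq HT and libraries with Nextera Flex. For the aligner, versions and strand setting: not given in the sources used here. Of 114 columns 113 were used, and 1 column of the table was left out because the sex in its name differs from the title it resembles. Reads on no gene (median 61.2% in PV-titled, 52.8% in C-titled libraries) stayed out of totals. Symbols and positions are from GENCODE vM21.

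Tests used R 4.3.3 and edgeR 4.0.16: TMM, filterByExpr, quasi-likelihood F tests, with Benjamini-Hochberg adjustment over all genes and a threshold of 0.05. The prefix fit had time, sex and range as terms, and the profile fit cosine and sine of 24 h, sex and range. Log2 CPM used a prior count of 2. DESeq2 1.42.0, other scalings, no filter, left-out replicate numbers, single ranges and single sexes were tried. Code was tested on simulated data. Named list genes have the smallest p of their list, and named neighbours the highest r; some genes that this rule picks are not reported here. Members and lists were chosen with earlier results of these data known. Libraries of a group were no copies of each other: the lowest chi-square per gene was 32.5 in 100 PV-titled and 14 in 112 C-titled pairs.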

Additional observations from a re-analysis of the deposited data

Results flagged for a closer look

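In groups of 8 to 10 libraries of one prefix and time, a library was listed where the gap between the highest or lowest value and its neighbour was a large share of the range of the group (Dixon's test, 95%). Of 84 combinations of gene, prefix and time, 11 were listed. The gaps were taken on CPM, whose spread is skewed towards high values, so the share of about 1 in 20 that chance gives under a normal spread does not hold here.

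All 11 were high values on that scale. For Arc they were 338.1 CPM in a PV-titled library of ZT10 (female, replicate 5) and 571.4 CPM in a C-titled library of ZT6 (female, replicate 1). For Dusp1 they were 163.2 CPM in the same PV-titled ZT10 library, 348.8 CPM in a PV-titled library of ZT18 (female, replicate 2), and 169.6 CPM in a C-titled library of ZT2 (female, replicate 3), where the next was 61.58 CPM. That last library also held 136 CPM of Btg2, where the next was 30.99 CPM, and it is one of the 8 that stand apart.

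Bdnf was listed at 211.6 CPM in a C-titled library of ZT2 (male, replicate 4) and 158.5 CPM in one of ZT6 (male, replicate 3), and both of these stand apart too. Homer1 was listed at 157.4 CPM in a PV-titled library of ZT10 (male, replicate 5), Dusp6 at 108.4 CPM in one of ZT6 (female, replicate 4) and Ier2 at 79.13 CPM in one of ZT2 (female, replicate 4).

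On log2 CPM, a scale added after seeing the data, 7 were listed, of which 4 were low values and 3 were also listed on CPM (Btg2 and Dusp1 in the C-titled ZT2 library and Bdnf in the C-titled ZT6 library). The low values were Arc at 41.52 CPM (next 204.9 CPM) in a PV-titled library of ZT14 (male, replicate 1) and Bdnf at 13.57 CPM (next 24.61 CPM) in another of ZT14 (male, replicate 4). The others were Dusp1 at 45.6 CPM (next 106.1 CPM) in a C-titled library of ZT18 (male, replicate 5) and Ier2 at 8.047 CPM (next 21.3 CPM) in one of ZT22 (male, replicate 3).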

How the results depend on the processing

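Bdnf, Homer1, Dusp6, Btg2 and Ier2 kept the direction and the call of the prefix difference over all times under each alternative run, and Arc kept the call of its C-titled profile under each of 18. With library totals in place of TMM the median of all genes moved from 0.01 to 0.21 and the share of called genes higher in PV-titled libraries from 50.7 to 61.7%, and Dusp1 then passed (log2 0.37). Signs turned for differences that had not passed with all libraries, and the causes were not tested. For Arc over all times the difference ran from -0.0567 to 0.43 with a replicate number left out and was -0.313 in the first range. For Arc at ZT10 it ran from -0.495 to 0.825 and was -0.883 in the first range and 1.60, called, in the second, at ZT18 it was -0.13 in the first range, and at ZT22 it was -0.00289 without replicate 4 and -0.0055 without the libraries that stand apart. Without replicate 5 Arc over all times was at -0.0297. Dusp6 at ZT10 was at 0.112 in the second range, and Ier2 at ZT18 at -0.0601 in the first. Dusp1 at ZT22 ran from -0.0418 (without replicate 2) to 0.129, and was -0.19 in the second range and -0.0597 without the libraries that stand apart.

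Shares of all genes called moved more, and fits of one range or one sex hold fewer libraries. Profiles called in PV-titled libraries (3.10%) were 0.153 and 0.307% in the first and second range, 1.2% with time as a factor, 0.997% in females, 0.0613% in males and 0.728 to 2.61% with a replicate number left out. Those in C-titled libraries (27.0%) were 2.9, 10.2, 10, 2.07 and 3.63% in the same order, and 15.1 to 27.0%. Profile differences (1.12%) were 0.23% with library totals, 0 and 0.0153% in the ranges, 0.123% without the libraries that stand apart, 1.84% by DESeq2 and 0.0306 to 1.18% with a replicate number left out. Sex differences in PV-titled libraries (0.0307%) were 0.0153% in the first range and 0.023 to 0.0383% with a replicate number left out. In C-titled libraries (0.184%) they were 0.0537 and 0.0307% in the ranges, 0.698% without the libraries that stand apart and 0.0614 to 0.184%. The setting without the libraries that stand apart was chosen after seeing the data.

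Replicate numbers were not taken to pair the libraries across prefixes: over 52 pairs of the same time, sex and number across prefixes the median correlation of deviations was 0.0832, and 24 were over 0.1. Within a prefix, libraries of different times that share a number were more alike (median 0.154) than those that do not (-0.0437). With the replicate number as a block in place of the range, profile differences fell to 0.13% of genes, and Dusp6 passed at ZT22 (adjusted p = 0.049).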
